A study of Drosophila melanogaster with 2 samples.

Results

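The nuclear transfer RNA (tRNA) genes of Drosophila melanogaster were examined for Stat92E-GFP peaks in whole embryos. Membership went by annotation: all genes of biotype tRNA on the chromosome arms with a symbol that starts with tRNA: were taken. This gave 290 of 18164 annotated genes on the arms, transposable elements left out. The members and measures were chosen with earlier results of these data known. Stat92E is the transcription factor of the fly JAK/STAT pathway. There was 1 group of 2 biological replicates, numbered 1 and 3: mixed-sex embryos of 0 to 12 h from a transgenic line, Stat92E-GFP, that stably expresses Stat92E with eGFP at its C terminus. The labels say that GFP was precipitated, while their antibody entry names Stat92E, and they give a fragment range of 200 to 800 bp. The labels do not say whether the flies also kept untagged Stat92E, and whole embryos mix all cell types.

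tRNA genes are transcribed by RNA polymerase III from a promoter inside the gene. Its A box and B box are bound by TFIIIC, which brings TFIIIB to the DNA just upstream of the start, and a run of T ends transcription. STAT factors are known from promoters and enhancers of genes read by RNA polymerase II, on palindromic sites made of TTC and GAA with a spacer of 3 or 4 bases. The shorter form is written TTCNNNGAA. Heavily transcribed tRNA genes are also known to give signal in ChIP with many unrelated antibodies. No control sample was analysed here, so such signal and binding of the factor cannot be told apart.

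The values are peak lists. The reproducible set is the authors' list thresholded by the irreproducible discovery rate, with 3601 peaks on the arms. The pooled list has 30000 peaks, as has each replicate list, and its 3603 strongest are the reproducible set. A summit is the position the authors' file gives inside each peak, rank 1 is the highest signal score, and a gene is said to have a summit when one lies within 500 bp of it. The score is the authors' own and has no stated unit, and the number of reads is unknown.

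The genes have a median length of 73 bp (71 to 186 bp) and fall into only 95 distinct sequences. The serine, glutamine and aspartate genes below are shown because each sequence occurs at several places in the genome, one of them at a strong peak and another with no reproducible summit. All are read 5′ to 3′ on the gene's strand from the RefSeq copy of Release 6 (dm6), and the capitals mark the B box found by the pattern GNTCNANNC. The tyrosine gene lies nearest to the strongest peak at any tRNA gene and holds an intron.
tRNA:Tyr-GTA-1-8: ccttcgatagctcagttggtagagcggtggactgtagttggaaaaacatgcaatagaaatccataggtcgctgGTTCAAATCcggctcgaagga
tRNA:Ser-AGA-2-4: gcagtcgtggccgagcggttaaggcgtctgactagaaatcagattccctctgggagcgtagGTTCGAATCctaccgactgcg
tRNA:Gln-TTG-1-2: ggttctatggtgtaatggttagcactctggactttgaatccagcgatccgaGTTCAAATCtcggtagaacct
tRNA:Ser-GCT-2-5: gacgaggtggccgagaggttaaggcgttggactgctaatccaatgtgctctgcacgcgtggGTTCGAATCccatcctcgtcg
tRNA:Asp-GTC-1-4: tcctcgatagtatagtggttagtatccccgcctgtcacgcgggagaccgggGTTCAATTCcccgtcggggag

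tRNA genes lay next to a reproducible summit more often than other genes did. Of the 290 genes, 94 (32.4%) had one within 500 bp of the gene, against 20.4% of the 17874 other genes measured in the same way. Most other genes are far longer, so the window was also laid around the gene start. By that measure the count of tRNA genes was again 94, against 14.7% of all other genes and 17.3% of the 13945 protein-coding genes. Other short RNA genes gave 8 of 32 for small nuclear RNAs, 32 of 269 (11.9%) for snoRNAs and 8 of 260 (3.08%) for microRNAs.

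Other genes of RNA polymerase III were unlike each other. None of the 96 annotated 5S rRNA genes on the arms, which form a tandem repeat, had a reproducible summit. The sources used here do not say how reads that match several places were treated. Outside the repeat, 4 of 9 further such genes had a summit. These were the 7SK gene snRNA:7SKa, whose RNA holds the elongation factor P-TEFb inactive (rank 125), RNaseMRP:RNA (rank 263) and the spliceosomal genes snRNA:U6:96Ab and snRNA:U6:96Ac, which shared 1 summit of rank 799. Both 7SL genes, which encode the RNA of the signal recognition particle, RNaseP:RNA, snRNA:7SKb and snRNA:U6:96Aa had none. The 7SK and U6 genes among these 9 are also counted in the small nuclear RNA class.

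**Figure D1:**
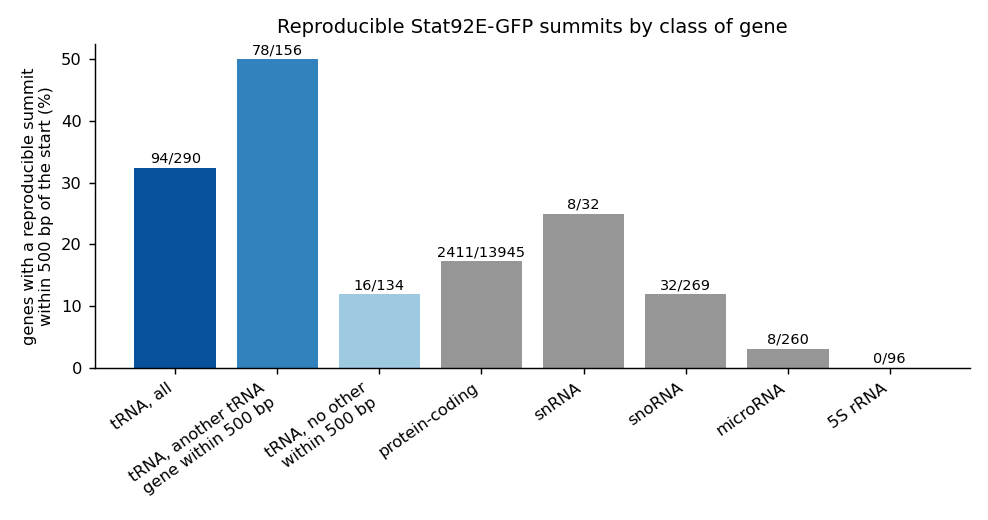
Percent of genes with a reproducible summit within 500 bp of the gene start (vertical axis) by class of gene, with counts above the bars; the blue bars split the tRNA genes by whether another tRNA gene lies within 500 bp. The tRNA genes with such a neighbour stand at 50%, and those without one at 11.9%, below the protein-coding genes at 17.3%.

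The 94 genes were covered by 59 summits, 1.64% of all reproducible summits, in the 0.174% of the arms that lies within 500 bp of a tRNA gene. Those 59 peaks formed 53 separate intervals, because neighbouring peaks of one locus overlapped. Only 58 genes were the nearest gene to a summit, and the rest were counted through a neighbour's.

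The summits lay close to the genes. Of the 59, 47 (79.7%) were inside a tRNA gene or within 100 bp of one, and only 3 were more than 250 bp away. Along the gene's strand the median position was 5 bp after the start, with quartiles at -53.5 and 99.5 bp, which spans the whole length of a typical gene. There were 29 summits upstream, 21 downstream and 9 inside the gene. Per kb of sequence, 0.679 summits lay at 1 to 100 bp from a tRNA gene and 0.409 inside the genes. The density fell to 0.135 at 101 to 200 bp and to 0.0273 at 301 to 400 bp, close to the mean of the arms, 0.0269. That last bin held 1 summit. Farther out the density was 0.0285 at 401 to 500 bp, 0.0304 at 501 to 1000 bp and 0.0386 at 1001 to 1500 bp. It was 0.0663 at 1501 to 2000 bp (10 summits), so it did not fall below the mean. The farthest summits counted were at 301 and 428 bp, and the nearest ones beyond the limit of 500 bp were at 802 and 854 bp. In the pooled list the density was also highest at 1 to 100 bp, with 1.91 summits per kb, and was 0.327 at 301 to 400 bp. It stayed above the pooled mean of the arms, 0.224, in every bin out to 2000 bp.

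**Figure D2:**
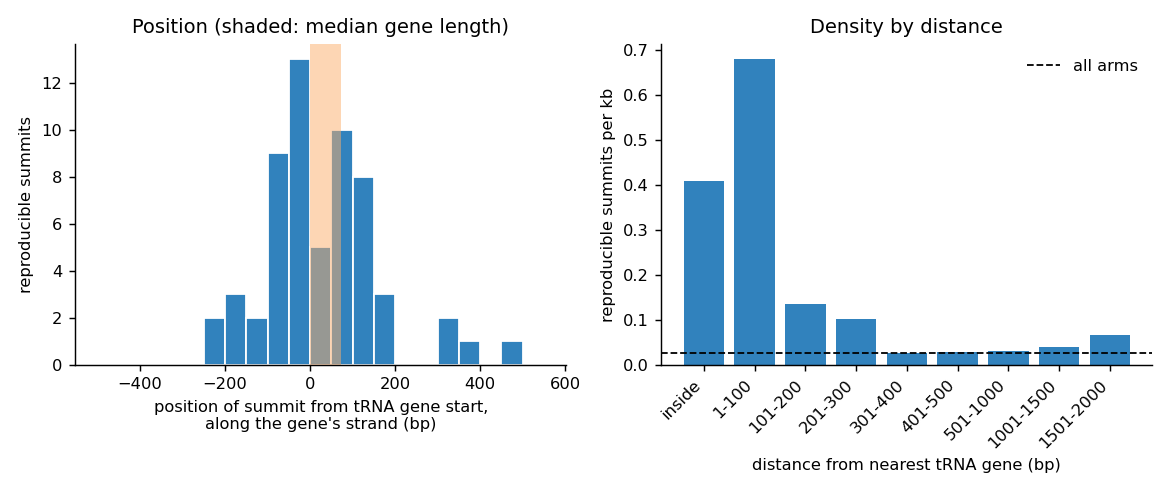
Left, positions of the 59 reproducible summits from the start of the nearest tRNA gene along its strand in bp (bars: number of summits per 50 bp; shading: median gene length of 73 bp). Right, reproducible summits per kb of sequence at increasing distance from a tRNA gene. The density is highest at 1 to 100 bp (0.679) and comes close to the mean of all arms (dashed, 0.0269) at 301 to 400 bp. At 1501 to 2000 bp it is 0.0663.

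Genes with a close tRNA neighbour had a summit far more often than isolated ones. Of 156 genes with another tRNA gene within 500 bp, 78 (50%) had a reproducible summit, and of 134 genes without one, 16 (11.9%). Close genes can share a summit and together occupy more sequence, so the windows of 500 bp around the genes were also joined wherever they touched, which gave 174 stretches of 1 or more genes. A reproducible summit lay in 9 of the 105 stretches with 1 tRNA gene (8.57%, exact 95% interval 3.99 to 15.6) and in 41 of the 69 stretches with 2 or more (59.4%, interval 46.9 to 71.1). The intervals do not overlap. They cover counting error only and take stretches as independent.

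Per kb of stretch, which takes the longer sequence into account, single genes carried 0.0796 summits and pairs 0.487, with 0.337 and 0.336 for stretches of 3 and of 4 or more. Density was thus higher with a second gene, and not higher again with further ones. Among the 3603 strongest peaks of each replicate alone, single genes stood at 0.0796 per kb in both. Pairs stood at 0.471 in replicate 1 and 0.361 in replicate 3, and stretches of 3 at 0.437 and 0.404, so in replicate 3 the stretches of 3 were the densest. A protein-coding transcription start site (TSS) nearby also went with a summit, with 36 of 80 tRNA genes within 1 kb of a TSS (45%) and 58 of 210 farther away (27.6%). Away from any TSS, 3 of 78 single-gene stretches (3.85%) and 24 of 44 larger ones (54.5%) had a summit.

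**Figure D3:**
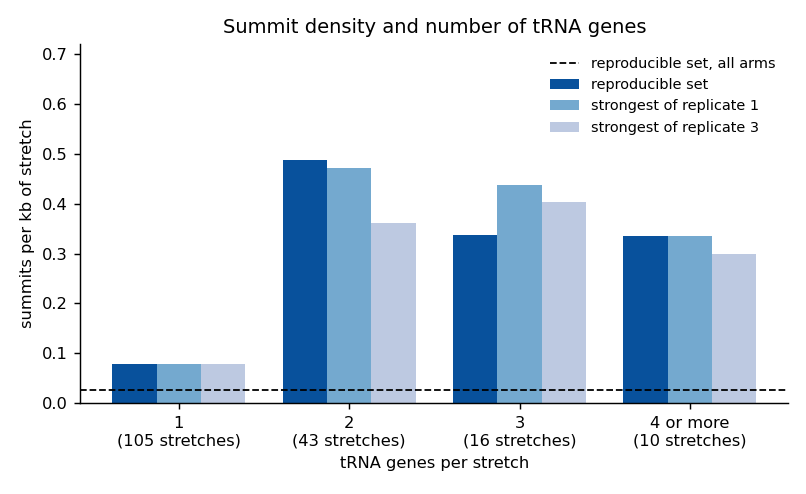
Summits per kb (vertical axis) in stretches made by joining the 500 bp windows around tRNA genes, by number of tRNA genes in the stretch; the bars give the reproducible set and the strongest peaks of each replicate, and the dashed line the mean of all arms. Stretches of 1 gene stand at 0.0796 in the 3 lists plotted and pairs between 0.361 and 0.487.

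In pairs, the summits lay mostly between the genes. The 43 stretches of exactly 2 genes held 31 summits, of which 17 (54.8%) lay between the genes, 5 inside one of them and 9 outside. The sequence between them makes up 22.3% of these stretches. The outer sequence reaches 500 bp from a gene, and distance from a gene was not held equal in this comparison. By orientation, a summit was found at 9 of 13 divergent, 7 of 12 convergent and 10 of 18 tandem pairs. The median gap was 268.5 bp in pairs with a summit and 246 bp in those without one.

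A divergent aspartate pair had 1 summit between the genes and 1 outside them. The genes tRNA:Asp-GTC-1-4 and tRNA:Asp-GTC-1-5 lie at chr2L:8541552-8541832 (dm6), in capitals on the plus strand below, with 137 bp between them.
Asp pair: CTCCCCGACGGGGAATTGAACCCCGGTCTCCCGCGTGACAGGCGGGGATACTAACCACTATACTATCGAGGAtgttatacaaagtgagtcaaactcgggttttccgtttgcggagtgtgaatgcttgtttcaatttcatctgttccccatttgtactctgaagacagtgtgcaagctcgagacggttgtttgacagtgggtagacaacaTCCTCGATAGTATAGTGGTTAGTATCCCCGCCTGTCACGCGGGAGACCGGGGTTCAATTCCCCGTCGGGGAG
A summit of rank 967 lay in the sequence between them, 55 bp after the left gene, and a second one of rank 2127 lay 54 bp beyond the right gene. The peaks overlapped each other, and whether they mark separate positions was not tested. Both overlapped the same replicate peak, of rank 935 in replicate 1 and 1711 in replicate 3. With 50% reciprocal overlap, the match of the second peak in replicate 3 had rank 4017.

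Identical gene copies differed in whether they had a peak. Of the 290 genes, 238 had at least 1 copy of the same sequence from first to last base, in 43 groups of up to 13 genes. In 32 groups some members had a reproducible summit, in 11 none had, and in 0 groups did all members have one. The share with a summit was 34% of the genes with a copy and 25% of the 52 genes without. Within these 32 groups, genes with and without a summit had the same sequence. Reads from inside such genes match several places, and how they were placed is not stated, so its part in these counts was not tested.

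The copies printed above show the contrast. The serine gene tRNA:Ser-AGA-2-4 on 2L (3173003 to 3173084) had a summit of rank 386 inside the gene, with ranks 496 in replicate 1 and 412 in replicate 3. Its copy tRNA:Ser-AGA-2-5 on 3L (5342084 to 5342165) had no summit in the pooled list or replicate 1 and one of rank 19706 in replicate 3. The glutamine gene tRNA:Gln-TTG-1-2 on 3R (26947263 to 26947334) had a summit of rank 616, with ranks 340 and 2041 in replicates 1 and 3. Its copy tRNA:Gln-TTG-1-1 on 3L (11801471 to 11801542) had none in any list. Likewise tRNA:Ser-GCT-2-5 had rank 955 (451 and 3894 in replicates 1 and 3) and tRNA:Ser-GCT-2-1 none in any list, and tRNA:Asp-GTC-1-4 had rank 967 and tRNA:Asp-GTC-1-6 only a summit of rank 13569 in replicate 3. In each case the copy without a reproducible summit was taken for having no pooled summit, and it stands alone within 5 kb. Other identical copies without a reproducible summit do not stand alone. tRNA:Ser-GCT-2-3 and tRNA:Ser-GCT-2-4 are in the same cluster as tRNA:Ser-GCT-2-5, and tRNA:Asp-GTC-1-12 has a tRNA gene within 500 bp, and these had no summit in any list. tRNA:Ser-AGA-2-3, in the cluster of tRNA:Ser-AGA-2-4, had a best pooled rank of 13965.

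The 40 bases before the start differ between such copies, as the serine and glutamine genes show.
tRNA:Ser-AGA-2-4 upstream: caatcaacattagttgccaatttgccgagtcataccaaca
tRNA:Ser-AGA-2-5 upstream: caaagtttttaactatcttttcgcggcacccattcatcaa
tRNA:Gln-TTG-1-2 upstream: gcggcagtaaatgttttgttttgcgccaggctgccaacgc
tRNA:Gln-TTG-1-1 upstream: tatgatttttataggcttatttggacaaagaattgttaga
Laid side by side without gaps, 14 of the 40 positions were equal in the serine copies and 13 in the glutamine copies.

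The internal promoter was present in genes with and without peaks alike. The B box pattern GNTCNANNC, searched on the gene's strand in the last 30 bases, was found in 289 of 290 genes and in 1.38% of the 30 bases before them. All 94 genes with a reproducible summit held it, as did 82 of the 83 genes with no summit in the pooled list. This pattern was added after seeing the data, and being in nearly all genes it could not tell these groups apart. The stricter GTTCGANNC was in 52.1% of genes with a reproducible summit and 56.6% of those without, and a longer, stricter form of the box in 31.9% and 38.3%. Neither stricter form was found in the 73 bases before any gene. An A box pattern in the first 40 bases was in 94.7% and 92.3%, against 1.72% of the 40 bases before the genes. A run of 4 T followed within 30 bases in 94.7% and 95.9% and preceded 30.7% of the genes within the same distance.

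STAT sites were rare at these summits. TTCNNNGAA lay within 50 bp of 1 of the 59 (1.69%, exact 95% interval 0.0429 to 9.09), against 8.84% of the 3542 other reproducible summits. The interval includes 8.84%, so at this distance a lower share was not detectable. Within 100 bp the site was again at 1 of 59, with the same interval, against 14.1% of the others, which lies above the interval. The exact intervals given for motifs cover counting error only. They take summits as independent, although neighbouring peaks of one locus overlapped. Among summits more than 1 kb from a TSS the counts were 1 of 35 (2.86%, interval 0.0723 to 14.9) near tRNA genes and 188 of 1208 (15.6%) elsewhere, a share just above that interval. The single site reads TTCCTGGAA and spans chr2L:14598752-14598760. Its middle is 19 bp away from the summit at tRNA:Pro-AGG-1-2 (rank 2296), outside the tRNA gene. With 4 bases between TTC and GAA, a site lay at 3 of 59 summits (5.08%) and at 6.80% of the others. A site with either spacer was at 4 of 59 (6.78%, interval 1.88 to 16.5) and at 14.9% of the others. Within 100 bp the count stayed at 4 of 59, and the share of the others was 23.0%, above the interval. With 47 of the 59 summits inside a tRNA gene or within 100 bp of one, the sequence searched was partly that of tRNA genes. TTCNNNGAA occurs in 1 of the 290 tRNA genes (0.345%). The part of this gene sequence in the lower shares was not tested.

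Other elements of RNA polymerase II promoters were few as well. The DRE element TATCGATA and the GAGA factor motif GAGAGAG were each within 50 bp of 0 of the 59 summits, which allows a share of up to 5.08% by the limit of 3 counts and 6.06% by the exact interval. The other summits held them at 2.94% and 3.16%, so at 50 bp a difference was not detectable. Within 100 bp, GAGAGAG was still at 0 of 59, against 7.11% of the others, which is above both limits. These limits also take summits as independent. TATCGATA was then at 2 of 59 (3.39%), against 6.18% of the others. Both lay within 1 kb of a TSS, where they made up 2 of 24 summits (8.33%), against 9.13% of the other summits there. Only 24 of the 59 summits (40.7%) lay within 1 kb of a protein-coding TSS, against 65.9% of the other reproducible summits. Base composition was alike, and the median GC content in the 50 bp to each side was 40.6% in both groups. The motif searches read both strands.

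Peaks at tRNA genes were of middling strength. Signal scores ran from 122 to 394 with a median of 166, and the other reproducible peaks had a median of 160 and a maximum of 1085. With the reproducible set cut by rank into 5 equal bins, from strongest to weakest, 8, 18, 16, 11 and 6 summits were near tRNA genes.

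The strongest lay near the tyrosine gene tRNA:Tyr-GTA-1-8 on 3R (8669081 to 8669174, minus strand), inside the protein-coding gene CG8036. Its summit, of rank 119 in the reproducible set, 172 in replicate 1 and 99 in replicate 3, was 182 bp upstream of the tRNA gene and 262 bp from the TSS of CG8036, so both kinds of gene were close. It was 1 of 10 tyrosine genes, and the other 9 had no reproducible summit. The next, of rank 180 (173 and 261 in the replicates), lay 105 bp from the glutamate gene tRNA:Glu-TTC-1-5 on 2R, and the nearest TSS, that of CG8517, was 13279 bp away. The tryptophan gene tRNA:Trp-CCA-2-2 on 2R had a summit of rank 265 (264 and 324) 27 bp upstream and 260 bp from the TSS of CG30122. The threonine gene tRNA:Thr-AGT-1-4 on 3R stood alone, with a summit of rank 376 (546 and 359) 37 bp upstream and 294 bp from the TSS of CG31279.

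The 8 next strongest peaks ran from rank 386 to rank 906. Their nearest tRNA genes were tRNA:Ser-AGA-2-4, tRNA:iMet-CAT-1-5, tRNA:Ala-TGC-2-1, tRNA:Gln-TTG-1-3, tRNA:Arg-ACG-1-4, tRNA:Glu-CTC-2-1, tRNA:Gly-GCC-1-12 and tRNA:Arg-TCT-1-1. The protein-coding genes with the nearest TSS were CG31698, ome, CG10939, Spag1, Cyp6w1, CG8517, CG30389 and CG34228. Of these 12 peaks, 0 held TTCNNNGAA within 50 bp of the summit. The peak at tRNA:Gly-GCC-1-12, with its summit inside the gene, held a site with the 4-base spacer at that distance. Among these 12, the replicates were farthest apart for tRNA:Gln-TTG-1-3, which stood at rank 340 and rank 2041 in replicates 1 and 3.

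The largest clusters were not alike. Genes of the same arm with gaps of at most 5 kb were counted as 1 cluster, which gave 68 clusters of 2 or more genes and 76 single genes. A reproducible summit was present in 38 of the clusters (55.9%) and at 6 of the single genes (7.89%). The most complete was the cluster of initiator methionine and glutamate genes on 2R (19725620 to 19728958, from tRNA:iMet-CAT-1-1 to tRNA:Glu-CTC-2-2), where all 7 genes were covered by 4 summits of ranks 180, 764, 1573 and 2000. The cluster of 11 alanine, proline, threonine and valine genes on 3R (17617761 to 17631750, from tRNA:Val-CAC-1-1 to tRNA:Pro-TGG-1-3) had 3 summits at 7 genes, the best of rank 1052. That of 11 arginine, asparagine, isoleucine and lysine genes on 2R (6161535 to 6171759, from tRNA:Arg-ACG-1-2 to tRNA:Arg-ACG-1-4) had 2 summits at 6 genes, the best of rank 751.

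A cluster of 7 isoleucine and leucine genes on 2R (13430282 to 13432794, from tRNA:Ile-AAT-1-3 to tRNA:Leu-CAA-1-1) had 2 summits at 3 genes. The cluster of 7 arginine and serine genes on X (14014814 to 14017284, from tRNA:Arg-TCG-2-1 to tRNA:Arg-TCG-3-4) had no reproducible summit, and its best pooled rank was 5129, with 4010 in replicate 1 and 8273 in replicate 3. On X as a whole, this cluster included, 2 of 24 tRNA genes (8.33%) had a reproducible summit. These were 0 of the 12 genes with a tRNA neighbour within 500 bp, where the other arms ranged from 35.9% to 65%. Of the 12 without one, 2 (16.7%) had a summit, where the other arms ranged from 4.76% to 15.8%. Over all tRNA genes, the other arms ranged from 24.1% of 79 genes on 3R to 44.9% of 98 on 2R. The share of other genes on X was not set beside these counts.

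By amino acid, the initiator methionine and glutamine genes had the highest shares among families of 5 or more genes, and tyrosine the lowest. Of 6 initiator methionine genes, which start every protein, 4 had a reproducible summit, all in 2 close groups: tRNA:iMet-CAT-1-4 and tRNA:iMet-CAT-1-5 at rank 402 and tRNA:iMet-CAT-1-1 and tRNA:iMet-CAT-1-2 at rank 1573. The remaining ones, tRNA:iMet-CAT-1-3 (pooled rank 23848) and tRNA:iMet-CAT-2-1 (no pooled summit), stand alone. Glutamine genes had a summit at 7 of 12, tryptophan at 4 of 8, aspartate at 6 of 14 and asparagine at 4 of 10. Lysine had 5 of 19, arginine 7 of 26, glycine 4 of 20, valine 3 of 15 and elongator methionine 1 of 6.

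The remaining families lay between 20% and 37.5%, with leucine at 8 of 22, glutamate at 7 of 19, alanine and threonine each at 6 of 17, serine at 6 of 20, proline at 5 of 17, isoleucine at 4 of 11, phenylalanine at 3 of 8, cysteine at 2 of 7 and histidine at 1 of 5. The single selenocysteine gene, tRNA:SeC-TCA-1-1, which reads a stop codon, had only a weak pooled summit (rank 19297). These families are small and their genes share summits, so their order is a description. A close neighbour was present at 70% of tyrosine genes, 84.2% of glutamate genes and 27.3% of leucine genes. With such a neighbour, 1 of 7 tyrosine, 6 of 16 glutamate and 6 of 6 leucine genes had a summit. Without one, the counts were 0 of 3, 1 of 3 and 2 of 16. The part of neighbours in the order of the families was not tested. Of the 16 genes with an intron, 3 had a summit. Inside a protein-coding gene lay 134 of the tRNA genes, of which 39 (29.1%) had a summit, against 55 of the 156 outside (35.3%).

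**Figure D4:**
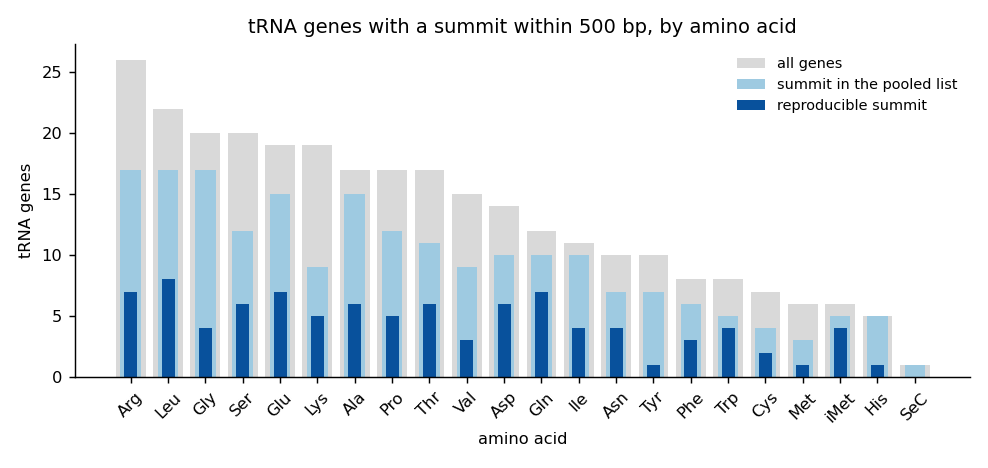
Number of tRNA genes (vertical axis) by amino acid: all genes (grey), those with a summit of the pooled list within 500 bp (light blue) and those with a reproducible summit (dark blue). Initiator methionine (iMet, 4 of 6) and glutamine (7 of 12) have the highest shares among families of 5 or more genes, and tyrosine (1 of 10) the lowest.

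Peaks at tRNA genes had higher places in replicate 1 than in replicate 3. All 59 overlapped a peak in each replicate list, as did 3505 of the 3542 other reproducible peaks. The reproducible set was derived from the replicate lists, so this overlap is a property of the set. Any overlap counted, so neighbouring peaks could take the rank of the same replicate peak. Ranks ran from 172 to 16854 with a median of 1205 in replicate 1, and from 99 to 6266 with a median of 2041 in replicate 3. The other reproducible peaks had medians of 1763.5 and 1763. The rank was better in replicate 1 for 40 of the 59 peaks and better in replicate 3 for 19 (32.2%), against 51.2% of the other peaks with a better rank in replicate 3. The peak at the cysteine gene tRNA:Cys-GCA-1-3 stood farthest apart, at rank 16854 in replicate 1 and 707 in replicate 3. Among the 3603 strongest of both replicates were 46 (78.0%) of the tRNA peaks and 65.9% of the others. With 2 replicates, a difference between them has no replication of its own.

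**Figure D5:**
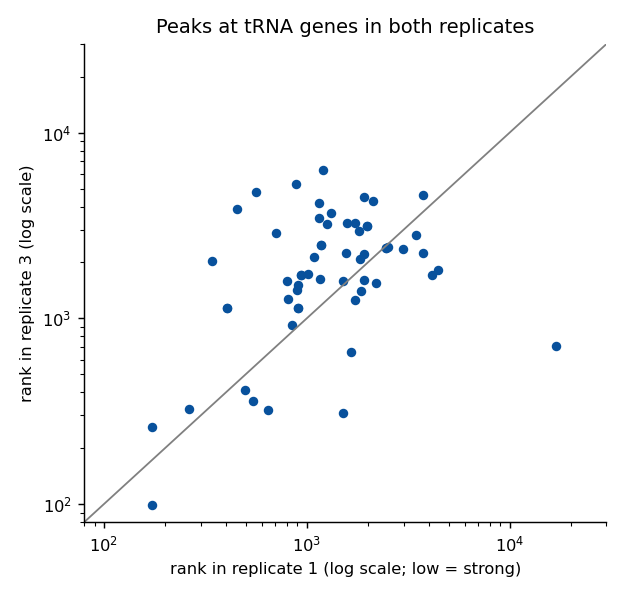
Rank of the 59 peaks at tRNA genes in replicate 1 (horizontal, log scale) and replicate 3 (vertical, log scale), where a low rank is a strong peak and the line marks equal ranks; points at shared replicate peaks coincide. More peaks lie above the line (40) than below it (19), with medians of 1205 and 2041.

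Each replicate was also counted by itself. The 3603 strongest peaks of replicate 1 lay within 500 bp of 98 tRNA genes (33.8%), against 19.9% of all other genes. Those of replicate 3 lay within 500 bp of 83 (28.6%), against 19.6%. The lists shared 71 genes, 72.4% of those in replicate 1 and 85.5% of those in replicate 3. In the whole pooled list, which runs down to poorly supported peaks, 207 tRNA genes (71.4%) had a summit, against 55.8% of all other genes. Of the 196 genes without a reproducible summit, 113 had a pooled one, the best of rank 3863 and the median at rank 10274. For 58 genes there was no summit in any of the 4 lists.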

How the data were processed

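Peaks of 2 biological replicates came as 4 lists on build dm6, per the file lists deposited with the samples: 1 for each replicate, 1 for both together, and 1 thresholded by the irreproducible discovery rate. Those lists of files derive the first 3 from the alignments and a shared further file, which the control-normalised tracks also use, and the last from the other 3. The sources used here name no caller, aligner or settings, nor how reads with several matches were treated. The deposited signal score ranked peaks within a list. The deposited -log10 q-value was 3.62 in every peak of the reproducible set and was not used to rank. Summits are the deposited peak start plus offset, made 1-based. The 2 reproducible peaks on the mitochondrial chromosome were left out. Read depth is unknown.

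Genes came from Ensembl BDGP6.54.115 and sequence from RefSeq Release 6, the assembly of dm6. Counts and exact binomial intervals were computed with Python 3.11.15, pandas 2.3.3 and scipy 1.17.1, and the code was tested on planted summits. With 1 group and no control sample there was no test over samples, and genes and peaks are not replicates, so no p-value is given. The members, lists and measures were chosen with earlier results of these data known. Stretches of joined windows, the B box pattern GNTCNANNC and TTCGAA were added after seeing the data. Text names the genes at the 12 strongest tRNA peaks, the first and last gene of the 5 largest clusters, initiator and selenocysteine genes, up to 4 pairs of identical copies, and the counts by amino acid. The pair printed, the genes of the only STAT site and of the peak farthest apart between replicates, the single genes with a summit, the further identical copies and the other RNA polymerase III genes were named as examples or counts of 5 or fewer. Alternatives changed the window, the peak set, the cluster gap, the overlap and the motif.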

Additional observations from a re-analysis of the deposited data

How the results depend on the processing

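The counts of tRNA genes with a summit (94) and of summits at them (59) stayed within 1.5 times under windows of 250 and 1000 bp, measurement from the gene start and overlap of the peak itself with the gene (73 genes and 51 peaks). They were 207 and 208 in the whole pooled list, and 58 and 35 for genes more than 1 kb from a TSS. With the stricter 50% of the set there were 35 summits at 63 genes. Leaving out a replicate gave 83 to 98 genes and 52 to 61 summits. The share of clusters with a summit (30.6%) was 27.8% to 30.6% without a replicate and 20.8% with the stricter 50%. The median position (5 bp) ran from -4 to 18 bp without a replicate and was 30 bp with the stricter 50%. The share of summits with TTCNNNGAA (1.69%) was 0% to 1.64% without a replicate, 0% with the stricter 50% and 5.08% for the 4-base spacer; all rest on 3 summits or fewer. Stretches of 1 gene had a summit in 8.57% of cases also without either replicate, in 5.71% with the stricter 50%, in 53.3% with the pooled list and in 3.85% away from a TSS. For stretches of 2 or more (59.4%) the values were 50.7% to 60.9%, 40.6% and 88.4%, and 54.5% away from a TSS. With 50% reciprocal overlap, 56 and 54 of the 59 peaks had a match in replicates 1 and 3, and the median ranks were 1289 and 2234. The lower counts come with fewer peaks or genes; other causes were not tested. The B box count was 160 with GTTCGANNC. No paired analysis was possible because there is 1 group.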

Other observations

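The half-sites of the STAT palindrome with no spacer, TTCGAA, occur in 62 of the 290 tRNA genes (21.4%), among them the serine genes whose B box is GTTCGAATC. This motif was looked at after the data were seen. Genes with and without a reproducible summit held it alike (20.2% and 21.9%). It lay within 50 bp of 5 of the 59 summits at tRNA genes (8.47%, exact 95% interval 2.81 to 18.7). The other reproducible summits held it at 4.26%, inside that interval, so a higher share was not detectable. In 3 of the 5 the motif was inside a tRNA gene. Of all 156 summit windows with TTCGAA, 3.21% were at tRNA genes, as were 1.64% of all reproducible summits.

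Of the 6 tRNA genes with a reproducible summit and no other tRNA gene within 5 kb, tRNA:Thr-AGT-1-4 is described above, and the remaining ones were tRNA:Leu-TAA-2-1 (rank 1289), tRNA:Phe-GAA-1-2 (1674), tRNA:Ile-AAT-1-8 (1778), tRNA:Gln-TTG-2-1 (2719) and tRNA:Thr-TGT-2-1 (3038). They were named because they are few, after their values were seen. The first 3 of these genes lie 239, 233 and 311 bp from a protein-coding TSS, and the last ones 8284 and 3008 bp. Their summits, in the order named, lay 364, 26, 369, 8043 and 2925 bp from the nearest such TSS. The summit counted for tRNA:Phe-GAA-1-2 was 274 bp from the tRNA gene and 26 bp from the TSS of RpL17, so it lay closer to that TSS.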
